A study of Leptinotarsa decemlineata with 6 samples.

Results

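The circadian clock genes of the Colorado potato beetle (CPB, Leptinotarsa decemlineata) were read in 6 RNA libraries of adult beetles. The members were found by name. For each of 8 clock names (period, timeless, Clock, cycle, cryptochrome, discs overgrown, vrille and clockwork orange), the Gene ID with the highest mean level over all 6 libraries was taken among those whose best protein match carries the name in Swissprot or in NR, the NCBI protein collection. This gave 7 Gene IDs of 236706, since no Gene ID carried the name discs overgrown, the fly casein kinase that phosphorylates PERIOD. The beetles, labelled as wild type, fell into 2 groups of 3 libraries, 1 labelled non-treatment and 1 treated with antibiotics. According to the methods, the antibiotic beetles ate potato leaves soaked in a mixture of tetracycline, penicillin, ofloxacin, ciprofloxacin and ampicillin, with Tween-20, and the controls received sterile water and leaves soaked in Tween-20 alone. Feeding lasted 3 days in the description of the behaviour tests. The beetles were reared at a set temperature and under a light cycle with more hours of light than of dark. The concentration given to these beetles, their age and the hour of sampling were not found in the labels or methods, and the labels do not say whether a library holds 1 head or several, so the p-values measure only the spread between these libraries.

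The clock of insects is a feedback loop of transcription. CLOCK and CYCLE pair and switch on period, timeless, vrille, Pdp1 and clockwork orange. The proteins PERIOD and TIMELESS return to the nucleus and hold the pair back, so that the messages rise and fall over the day. In many insects outside the flies, a cryptochrome of the mammalian kind acts with PERIOD as a repressor. Because these messages change with the hour, a level here is that of the unnamed hour at which the RNA was taken.

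The labels describe the libraries as head, with olfactory cells as the cell type, and the markers differed by group. Eye genes summed to between 7.58 and 11.7 TPM (a level corrected for transcript length and library depth) in the libraries labelled non-treatment and to between 242 and 353 TPM in the antibiotic libraries, and 3 of the 4 eye markers found rose. The pick that did not was for chaoptin, and Swissprot names it a leucine-rich repeat protein. The second Gene ID for chaoptin, which Swissprot names so, was higher, at a mean of 2.54 against 9.73 TPM. The antibiotic mean would have picked it. By limma the second arrestin was also higher, and those for rhodopsin and transient receptor potential protein did not pass. Gut genes summed to between 3249 and 9905 TPM against between 1258 and 1730, with 5 of 6 lower. Nearly all of the antibiotic sums was 1 trypsin Gene ID, the marker not lower, at 1244, 525 and 791 TPM against 1253, 1724 and 1550. The second trypsin Gene ID was lower, at 310, 209 and 328 TPM against 0.0173, 0.245 and 0.707. Among the other 5 gut picks, mean levels were 2119 against 15.4 TPM for intestain and 776 against 0.177 for peritrophin. They were 746 against 5.20 TPM for aminopeptidase N, 373 against 11.5 for polygalacturonase and 813 against 0.342 for endoglucanase. Some eye and gut picks were set by the group where the gene is high. The antibiotic mean would have picked other Gene IDs for peritrophin, aminopeptidase N and endoglucanase, and the non-treatment mean for rhodopsin and arrestin. Rhodopsin and arrestin had a mean of at least 1 TPM only in the antibiotic libraries, peritrophin and endoglucanase only in the others. The counts of eye and gut markers therefore depend in part on the picks. By limma the second Gene IDs for intestain and endoglucanase were also lower, and those for peritrophin, aminopeptidase N and polygalacturonase did not pass. The second one for aminopeptidase N had a mean of 41.9 against 52.9 TPM. The 5 sperm and axoneme markers were mixed, with 3 lower and 1 higher, and their sums overlapped, at between 199.7 and 684 TPM against between 131 and 203. Among them protamine was read at 516, 408 and 81.8 TPM against a listed 0 in all 3 antibiotic libraries, while axonemal dynein heavy chain was higher in these. Most of the antibiotic sums was the outer dense fiber pick, at 94.96, 79.3 and 98.9 TPM against 113, 131 and 184. The second Gene ID of that name had 97.4, 69.01 and 19.8 TPM against 1.25, 0.787 and 0.481. For axonemal dynein the second had 24.6, 20.03 and 4.65 TPM against 0.7701, 0.512 and 0.306. The second Gene IDs of all 5 names were lower in the antibiotic libraries by limma. The overlap of the sums and the mixed directions therefore depend on the picks. The posterior body genes Ultrabithorax, abdominal-A and Abdominal-B summed to between 2.71 and 3.95 TPM against between 0.0651 and 0.138. The sums of 2 further lists overlapped. Head patterning genes (labial, Deformed, proboscipedia, orthodenticle and empty spiracles) summed to between 5.45 and 7.19 TPM against between 6.77 and 10.2. Of these, 2 were tested and 0 passed. Egg markers summed to between 16.8 and 46.0 TPM against between 10.4 and 72.1, with 1 of 3 higher and 0 lower. The summed neuronal markers overlapped, at between 146 and 173 TPM against between 161 and 225, with complexin the largest part. Of the 6 found, synapsin was higher in the antibiotic libraries, and the groups did not overlap in 3 higher and 1 lower. Swissprot names the picks for synaptobrevin and choline O-acetyltransferase YKT6 and a cilia- and flagella-associated protein. The second Gene ID for choline O-acetyltransferase, which Swissprot names so, had 0.384, 0.413 and 0.422 TPM against 1.63, 2.07 and 1.84 TPM. What tissue a library holds and the antibiotic therefore cannot be told apart, and neither can fewer cells of a type and less RNA per cell. Count totals, held for 5 of the libraries, lay between 25397497 and 33613953. Spearman's rho over the genes tested was between 0.814 and 0.869 for 2 libraries of one group and between 0.600 and 0.721 across groups.

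No clock gene passed the test between the groups. Of the 7 members, 5 had a mean of at least 1 TPM in a group and entered the test (limma on log2(TPM + 1), adjusted p under 0.05 over all 33919 genes tested), and 0 of these 5 passed it. The background was 10.1% of the genes tested, 2.88% higher and 7.26% lower in the antibiotic libraries. At an unadjusted p under 0.05 the count of members was also 0, against 24.3% of all genes tested. The groups overlapped in all 7 members, the untested ones included, whereas they did not overlap in 30.3% of all genes tested. edgeR and DESeq2, run on the estimated counts of 5 libraries, tested all 7 and called 0. The median difference of the 5 members was 0.06 on the log2(TPM + 1) scale, against -0.09 over all genes tested. With 5 members tested, a count of 0 is near what the background share gives.

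**Figure D1:**
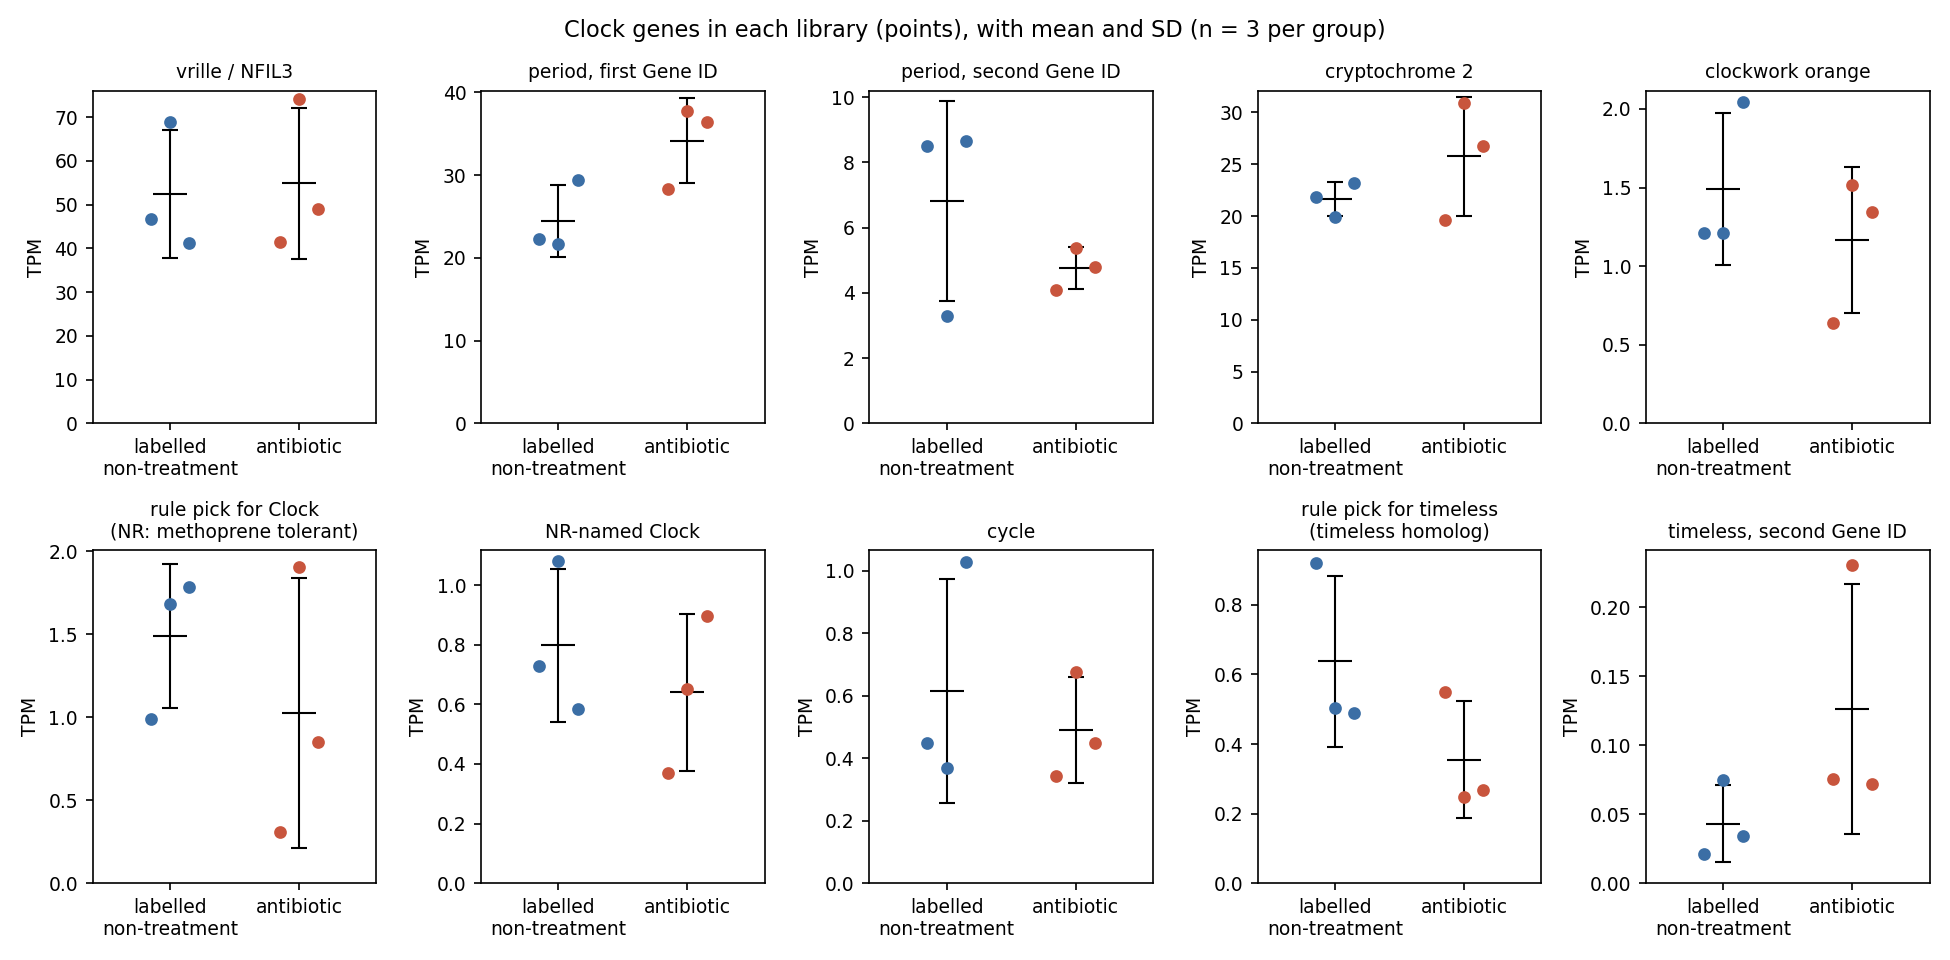
TPM of the clock genes and of the further Gene IDs that carry their names, on linear axes from 0, for the 3 libraries labelled non-treatment (blue) and the 3 antibiotic libraries (red); points are libraries, the long bar is the mean and the error bar the SD. The groups overlap in every panel, for period through antibiotic replicate 1 at 28.3 TPM, below non-treatment replicate 3 at 29.4 TPM.

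The members spanned a wide range of levels, which the rule of the highest mean helped to set and which are given as a description. vrille stood highest, at 53.6 TPM ± 14.4 (SD, n = 6 libraries), above 94.99% of the genes tested. period followed at 29.3 TPM ± 6.80 and cryptochrome at 23.7 TPM ± 4.41. The lowest vrille library, at 41.3 TPM, lay above the highest period library, at 37.8 TPM, while the ranges of period and cryptochrome overlapped. A wide step then separated these from clockwork orange at 1.33 TPM ± 0.459, the Gene ID taken for Clock at 1.26 TPM ± 0.636, cycle at 0.552 TPM ± 0.261 and the Gene ID taken for timeless at 0.496 TPM ± 0.243, each of which overlapped with the next. The repressor period was thus read far above both activators in every library. The margin of the picks over their runners-up also varied. The first Gene ID for period had a mean of 29.3 TPM and the second 5.79 TPM, those for Clock 1.26 and 0.719 TPM, those for timeless 0.496 and 0.0846 TPM, and those for cryptochrome 23.7 and 0.155 TPM. cycle and clockwork orange had a single Gene ID, and the second one for vrille was listed at 0 in every library.

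Among the repressors, period carried the largest difference of the members tested. PERIOD is the protein that accumulates, enters the nucleus and shuts off CLOCK and CYCLE. Its Gene ID, TRINITY_DN60035_c1_g1, whose closest NR match is period of the flour beetle Tribolium castaneum, was read at 22.3, 21.6 and 29.4 TPM in the libraries labelled non-treatment and at 28.3, 37.8 and 36.4 TPM in the antibiotic libraries. Only antibiotic replicate 1 fell within the other group, just under non-treatment replicate 3. The difference was 0.47 (SE 0.214, 95% interval -0.03 to 0.97) on the log2(TPM + 1) scale, with an adjusted p of 0.233 by limma. On counts, 1600, 1113 and 2083 against 1963 and 1964 in antibiotic replicates 2 and 3, edgeR gave a smaller log2 fold change of 0.26, with an adjusted p of 0.632.

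A second Gene ID, TRINITY_DN62444_c2_g2, also matches period of Tribolium in NR. Its level was 8.50, 3.29 and 8.67 TPM against 4.10, 5.39 and 4.78 TPM. Non-treatment replicate 2 was the lowest of all 6 libraries and the other libraries of its group the highest, so the groups overlapped. Its difference was -0.36 (95% interval -1.16 to 0.45), with an adjusted p of 0.578 by limma. Within each library, the first Gene ID stood to the second as 2.62, 6.58 and 3.40 in the libraries labelled non-treatment and as 6.90, 7.01 and 7.61 in the antibiotic libraries. The groups did not overlap in this ratio, which was nearly constant in the antibiotic libraries and spread widely in the others. The log2 difference of 0.88 had a two-sided exact permutation p of 0.1, the smallest that 3 libraries against 3 can give, and an adjusted p of 0.36 over the 9 ratios computed. The ratio was chosen after its values were seen.

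Cryptochrome, TRINITY_DN63329_c3_g7, has as its closest NR match cryptochrome 2 of Tribolium, the mammalian kind that represses the clock rather than the light sensor of flies. It was read at 21.8, 19.9 and 23.2 TPM against 19.6, 30.95 and 26.8 TPM. The libraries labelled non-treatment lay close together, and the antibiotic libraries held both the lowest and the highest value. The difference was 0.22 (95% interval -0.29 to 0.73), with an adjusted p of 0.587 by limma. cryptochrome and period stayed near each other in level, with ratios between 0.693 and 0.981 in the 6 libraries, and the log2 difference of the ratio between groups was -0.25 (two-sided exact permutation p = 0.2, adjusted p = 0.36).

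The name timeless led to another gene. In Drosophila, TIMELESS binds PERIOD and carries it to the nucleus, whereas the related timeout, known in mammals as timeless homolog, works in DNA replication. The Gene ID of highest level, TRINITY_DN59705_c2_g4, is annotated as timeless homolog in Swissprot and NR and as Timeout of Tribolium in TrEMBL. Its level was 0.920, 0.505 and 0.488 TPM against 0.549, 0.249 and 0.268 TPM, below the 1 TPM needed to enter the test. Antibiotic replicate 1 lay within the other group and the remaining antibiotic libraries below it. The difference was -0.27 with a two-sided exact permutation p of 0.3. On counts of 106, 58 and 65 against 33 and 26, edgeR gave a log2 fold change of -1.45 with an adjusted p of 0.106.

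The clock gene timeless itself was barely read. A set of 4 Gene IDs had Protein timeless as their Swissprot name, and 3 of them were above 0 in any library. Their summed level was 0.0210, 0.114 and 0.0342 TPM in the libraries labelled non-treatment and 0.114, 0.687 and 0.339 TPM in the antibiotic libraries. The highest value of the first group and the lowest of the second nearly coincided. The counts behind these sums were 1, 4 and 1 against 23 and 10, 6 in all against 33, and the two-sided exact permutation p of the summed TPM was 0.2. With so few counts and overlapping groups, a difference in timeless was not shown.

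Of the activators, the Gene ID taken for Clock also went against its name. CLOCK belongs to the bHLH-PAS family of transcription factors, as does methoprene tolerant, the receptor of juvenile hormone. Swissprot names TRINITY_DN61895_c1_g1 after CLOCK, but its NR match is methoprene tolerant of CPB itself. It was read at 0.992, 1.69 and 1.79 TPM against 0.310, 1.91 and 0.853 TPM, and the antibiotic libraries held both extremes. The difference was -0.36 (95% interval -1.17 to 0.45), with an adjusted p of 0.577 by limma. The runner-up, TRINITY_DN60240_c5_g3, has the clock protein of CPB as its NR match. Its level was 0.728, 1.08 and 0.583 TPM against 0.371, 0.653 and 0.897 TPM, again with overlap, and the difference was -0.14 (two-sided exact permutation p = 0.5). These values lie on either side of the limit for testing, with a mean in the libraries labelled non-treatment of 1.49 TPM for the first and 0.797 TPM for the second.

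cycle, TRINITY_DN52574_c0_g2, the partner of CLOCK, matches cycle of CPB in NR. Its level was 0.450, 0.369 and 1.03 TPM against 0.343, 0.676 and 0.450 TPM, from counts of 46, 39 and 118 against 78 and 52. Non-treatment replicate 3 was the highest by a wide margin and the other libraries of both groups were mixed. The difference was -0.10 with a two-sided exact permutation p of 0.7. The ratio of the NR-named Clock to cycle ran from 0.568 to 2.93 in the libraries labelled non-treatment and from 0.966 to 2.00 in the antibiotic libraries, and the log2 difference between groups, -0.12, was smaller than the SD within either group.

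In the second loop, VRILLE represses Clock and PDP1 activates it, while CLOCKWORK ORANGE, a factor of the orange family, competes for the sites of the CLOCK and CYCLE pair. vrille, TRINITY_DN52849_c4_g2, carries the Swissprot name of its mammalian relative NFIL3. The level was 46.8, 69.0 and 41.3 TPM against 41.4, 74.3 and 49.0 TPM. Replicate 2 of each group was the highest, and the groups covered nearly the same range. The difference was 0.06 (95% interval -0.62 to 0.74), with an adjusted p of 0.930 by limma.

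clockwork orange, TRINITY_DN58592_c1_g1, named in NR from CPB and in Swissprot after HEY2, was read at 1.21, 1.21 and 2.05 TPM against 0.639, 1.51 and 1.35 TPM. The groups overlapped, and the difference was -0.21 (95% interval -0.87 to 0.46), with an adjusted p of 0.706 by limma. Set against period in the same library, the groups parted on TPM but not on counts. The ratio of clockwork orange to period was 0.0543, 0.0559 and 0.0695 in the libraries labelled non-treatment and 0.0226, 0.0401 and 0.0370 in the antibiotic libraries. Every antibiotic library lay below every other. The log2 difference was -0.89 (two-sided exact permutation p = 0.1, adjusted p = 0.36 over the 9 ratios). Counts of clockwork orange were 122, 126 and 227 against 161 and 135 in antibiotic replicates 2 and 3. Those of period were 1600, 1113 and 2083 against 1963 and 1964. Taken from these counts, the ratio in antibiotic replicate 2 lay above that in non-treatment replicate 1. None of the 9 ratios had an adjusted p below 0.36, and with 3 libraries against 3 none could pass.

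**Figure D2:**
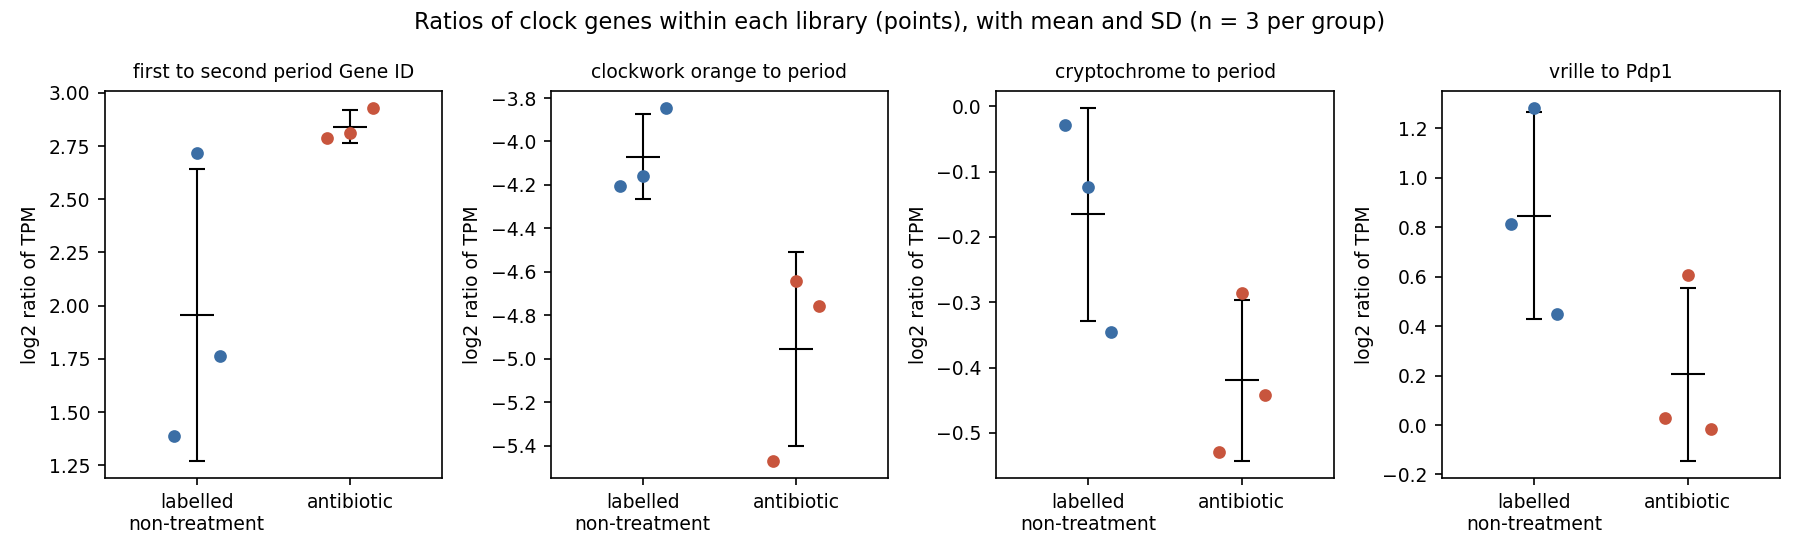
The log2 ratio of TPM between clock genes in the same library, for the 3 libraries labelled non-treatment (blue) and the 3 antibiotic libraries (red), with the mean (long bar) and SD; the axes do not start at 0. The groups do not overlap for the first to the second period Gene ID and for clockwork orange to period, and they overlap for cryptochrome to period and vrille to Pdp1. Taken from counts, the ratio of clockwork orange to period overlaps.

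The libraries of a group did not vary alike in these genes. Antibiotic replicate 1 was the lowest of its group in 6 of the 7 members, as it was in 56% of all genes tested, and antibiotic replicate 2 the highest in 6 of 7, against 47.1% of all genes. Non-treatment replicate 3 was the highest of its group in 5 of 7, against 35.1%. The median-of-ratios scaling factors, taken over 25761 genes, had the same lowest and highest libraries. They were 0.84, 1.12 and 1.006 in antibiotic replicates 1, 2 and 3, and 0.981, 1.025 and 1.05 in the libraries labelled non-treatment. Their part in this order was not tested. The highest library stood above the lowest by 1.17-fold for cryptochrome in the libraries labelled non-treatment and by 6.16-fold for the Gene ID taken for Clock in the antibiotic libraries. Over all genes tested with values above 0 the median of this fold was 1.81 in the first group and 1.84 in the second. period (1.36-fold and 1.34-fold), cryptochrome (1.17-fold and 1.58-fold) and vrille (1.67-fold and 1.79-fold) lay below these medians in both groups.

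The genes whose pattern was most like that of each member were found by the root mean square difference in centred log2(TPM + 1) over the 6 libraries. For period these were Striatin-interacting protein 1 at 0.0456 and an OPA3-like protein at 0.0514. For cryptochrome they were Rab-33B at 0.0256 and CCR4-NOT subunit 2 at 0.0341, and for vrille an SLX1 endonuclease subunit at 0.0624 and a very-long-chain 3-oxoacyl-CoA reductase at 0.0965. clockwork orange lay nearest to a serine hydrolase-like protein at 0.0437 and the acetyltransferase component of pyruvate dehydrogenase at 0.0476, and cycle to the mitochondrial Heat shock protein 75 kDa at 0.0417 and Integrator subunit 9 at 0.0468. The Gene ID taken for timeless lay nearest to a zinc finger protein at 0.0556 and the kinesin KIF4 at 0.064, and that for Clock to an N-glycosylase/DNA lyase at 0.07 and a glucose dehydrogenase at 0.0716. No clock gene of the wider list was among these nearest genes, which describe likeness over 6 libraries only. The log2(TPM + 1) scale flattens the changes of genes near or below 1 TPM, so their nearest genes can vary less in TPM. In the libraries labelled non-treatment, cycle had 0.450, 0.369 and 1.03 TPM and Heat shock protein 75 kDa 33.9, 31.3 and 45.1 TPM.

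Around the core loop, 30 further names of clock biology were looked up by the same rule, and 25 had a Gene ID. jetlag, HR51, the neuropeptide PDF, ebony and insomniac had none. Of the 23 that entered the limma test, 0 rose and 4 fell, beside the background of 2.88% higher and 7.26% lower. Among those that fell, casein kinase II alpha and an N-acetyltransferase were picked by means that came mostly or wholly from the libraries labelled non-treatment. The antibiotic mean would have picked other Gene IDs for both. The N-acetyltransferase also passed the 1 TPM filter only through the libraries labelled non-treatment. The count of falls therefore depends in part on the picks. With median-of-ratios scaling 2 rose and 4 fell. The groups did not overlap in 11 of the 25, all of them tested, 5 higher and 6 lower. Of all genes tested, they did not overlap in 10.5% higher and 19.8% lower. The median difference of the 23 was -0.17, against -0.09 over all genes tested. With edgeR and with DESeq2 on 5 libraries, 7 passed, 3 higher and 4 lower. The summed eye, gut and posterior body markers did not overlap between the same groups either, and their part in these differences was not tested.

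**Figure D3:**
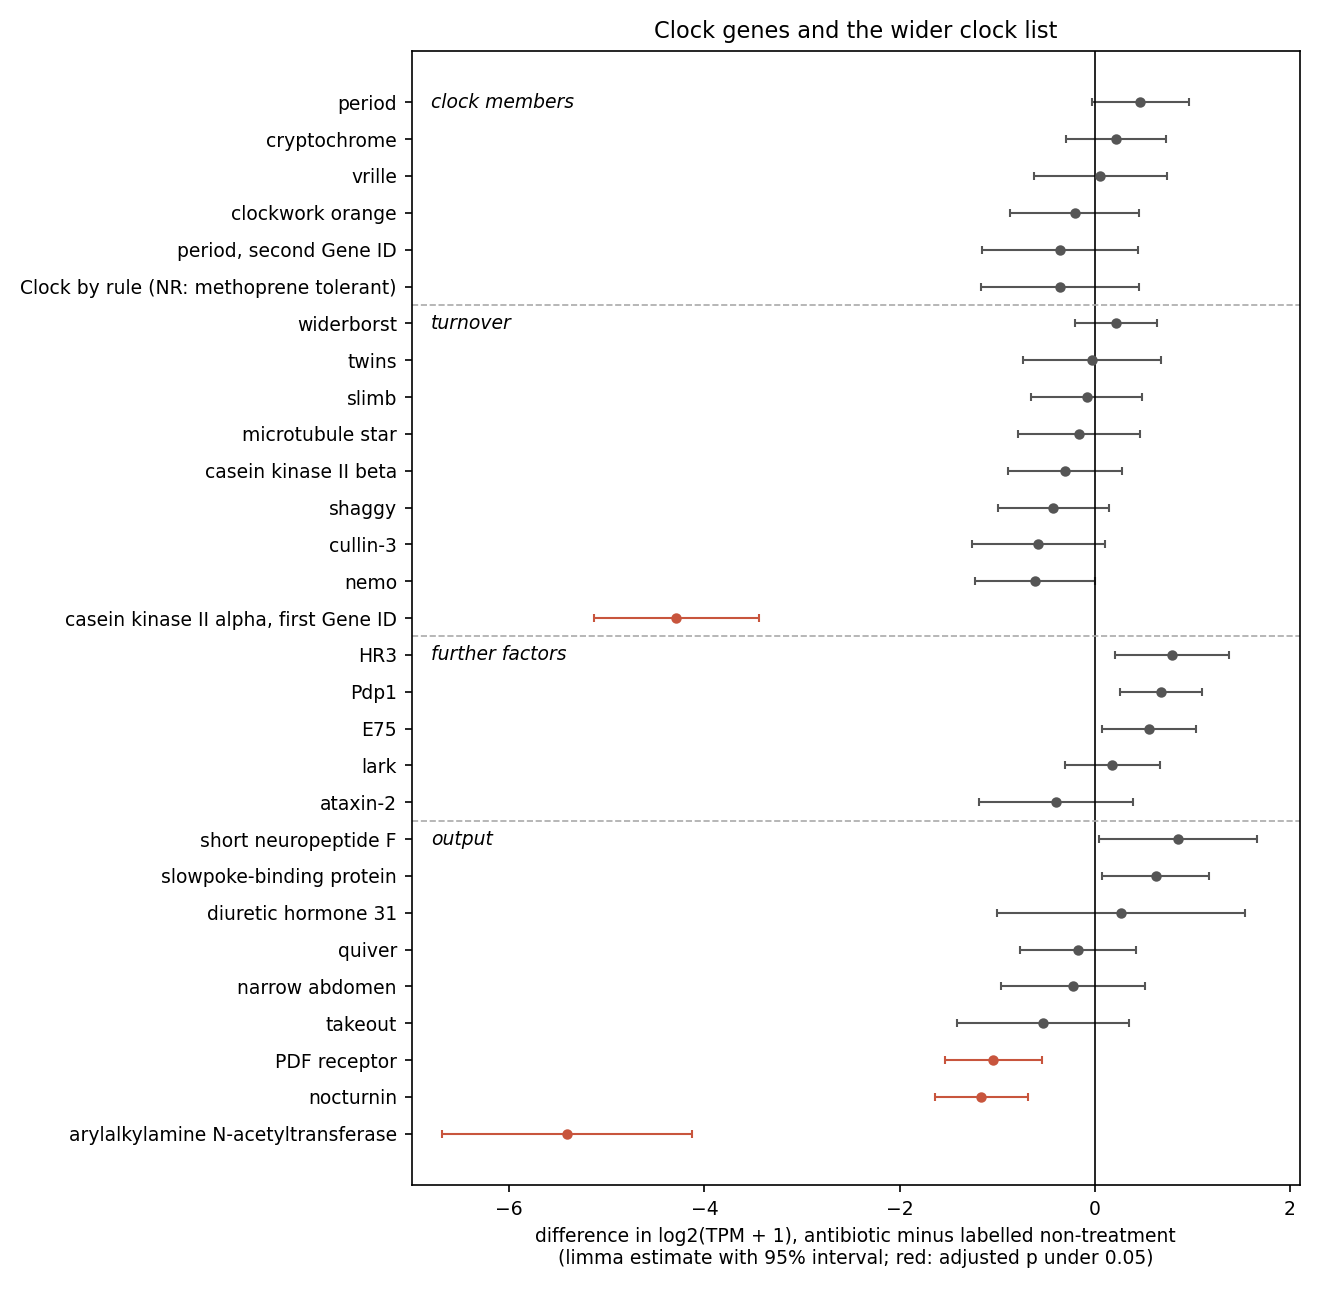
Difference in log2(TPM + 1), antibiotic minus labelled non-treatment, with its 95% interval by limma, for the 5 clock members tested, the second period Gene ID and the 23 genes of the wider list tested, grouped by role; red marks an adjusted p under 0.05. All members and the second period Gene ID have intervals that include 0, and the 4 red genes all lie below 0, at -4.29, -1.04, -1.16 and -5.41. The Gene IDs at -4.29 and -5.41 were picked by means that came mostly or wholly from the libraries labelled non-treatment.

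The enzymes that mark PERIOD and TIMELESS for turnover had 9 tested genes, of which 1 fell and 0 rose. Of all genes tested, 7.26% fell and 2.88% rose. The median difference was -0.30, against -0.09 over all genes tested. The 1 gene that fell was a subunit of casein kinase II, which phosphorylates PERIOD in flies. The Gene ID of highest mean for casein kinase II alpha, TRINITY_DN60245_c3_g1, was read at 51.8, 54.9 and 21.3 TPM against 0.974, 0.994 and 1.26 TPM. The groups were far apart and non-treatment replicate 3 was the lowest of its own. The level was 39.7-fold higher in the libraries labelled non-treatment, with a difference of -4.29 (SE 0.362) and an adjusted p of 0.00069 by limma. The sperm protein protamine had its lowest value in the same non-treatment library, at 81.8 TPM against 516 and 408, and its part in this difference was not tested.

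A second Gene ID for the same subunit, TRINITY_DN54805_c4_g3, whose NR match is casein kinase II alpha of Tribolium, did not pass. It was read at 12.6, 16.8 and 23.9 TPM against 14.9, 22.1 and 23.2 TPM, with an adjusted p of 0.732 by limma. This Gene ID would have been taken had the pick been made on the antibiotic libraries. The beta subunit, at 24.1, 26.01 and 28.1 TPM against 14.5, 26.3 and 23.8 TPM, had a difference of -0.30 and an adjusted p of 0.511. The kinase shaggy, which phosphorylates TIMELESS, was read at 17.6, 19.4 and 17.4 TPM against 9.37, 16.7 and 14.8 TPM. The antibiotic libraries all lay below the others, yet the difference of -0.42 had an adjusted p of 0.340, and edgeR on counts gave 0.07.

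nemo, a further kinase of PERIOD, had 2.07, 2.11 and 3.02 TPM against 0.763, 1.67 and 1.28 TPM, with a difference of -0.61 and an adjusted p of 0.210. slimb, the F-box protein that leads phosphorylated PERIOD to degradation, differed by -0.08 (adjusted p = 0.874 by limma) and cullin-3, a scaffold of ubiquitin ligases, by -0.58 (adjusted p = 0.279). The subunits of phosphatase 2A, which removes phosphates from PERIOD, had differences of 0.22 for widerborst, -0.03 for twins and -0.17 for microtubule star, with intervals that included 0. Casein kinase I of the delta and epsilon kind, to which discs overgrown belongs, was looked up after values were seen. TRINITY_DN57856_c3_g2 was read at 9.76, 6.09 and 2.37 TPM against 1.09, 0.225 and 2.53 TPM. Antibiotic replicate 3 lay within the other group, and the difference of -1.61 had an adjusted p of 0.103 by limma, of 0.211 by edgeR and of 0.0146 by DESeq2.

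The further factors of the clock held 5 tested genes, 0 of which passed, beside 10.1% of all genes tested. Their median difference was 0.56. The groups did not overlap in 3 of them, all higher in the antibiotic libraries, beside 10.5% of all genes tested. Pdp1, the activator opposed to vrille, carries the Swissprot name of its mammalian relative hepatic leukemia factor. Its values were 26.7, 28.4 and 30.3 TPM against 40.7, 48.7 and 49.6 TPM, so every antibiotic library lay above every other. The level was 1.63-fold higher, with a difference of 0.68 (95% interval 0.26 to 1.10) and an adjusted p of 0.0566 by limma, just outside the threshold. It passed with median-of-ratios scaling, at an adjusted p of 0.0184, and with edgeR, at 0.0433, but not with DESeq2, at 0.136. The ratio of vrille to Pdp1 was 1.76, 2.43 and 1.36 against 1.02, 1.52 and 0.988 (two-sided exact permutation p = 0.2, adjusted p = 0.36).

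The nuclear receptors E75 and HR3 serve the ecdysone response, and in flies E75 also acts on the clock. E75 had 34.5, 30.7 and 32.2 TPM against 38.2, 52.9 and 55.5 TPM. Its difference was 0.56, with an adjusted p of 0.146 by limma, 0.0634 by edgeR and 0.0494 by limma with median-of-ratios scaling. HR3 was low, at 0.336, 0.197 and 0.393 TPM against 1.05, 1.58 and 1.19 TPM, and the groups were well apart. Its mean was 4.13-fold higher in the antibiotic libraries, the only group in which it reached the 1 TPM needed for testing. The libraries labelled non-treatment would have picked the other Gene ID of that name, annotated as HR38, which differed by -0.03 and was too low to be tested. On the log2(TPM + 1) scale, which understates the change of low genes, the difference was 0.79 with an adjusted p of 0.0951 by limma. On counts of 35, 27 and 32 against 192 and 153, edgeR gave a log2 fold change of 2.39 with an adjusted p of 0.0112, and DESeq2 also passed it. The RNA-binding proteins lark and ataxin-2, which act on translation in the clock, differed by 0.18 and -0.40, with adjusted p of 0.651 and 0.525 by limma.

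Clock output and rhythm genes numbered 9 tested, of which 3 fell and 0 rose. Of all genes tested, 7.26% fell and 2.88% rose. The median difference was -0.22, against -0.09 over all genes tested. Nocturnin, an enzyme of rhythmic level in many animals, was read from TRINITY_DN63008_c4_g1 at 83.5, 66.5 and 75.8 TPM against 27.9, 39.0 and 32.8 TPM. The groups were well apart, and the level was 2.27-fold higher in the libraries labelled non-treatment. The difference was -1.16 (95% interval -1.64 to -0.69), with an adjusted p of 0.0117 by limma. It passed with edgeR and DESeq2 as well and missed the threshold without antibiotic replicate 3, at 0.0567, and without the filter on low values, at 0.0658.

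The PDF receptor, through which the neuropeptide PDF keeps clock neurons in step, was read from TRINITY_DN56645_c3_g1 at 4.40, 4.29 and 4.26 TPM against 1.27, 1.80 and 1.71 TPM. The libraries labelled non-treatment were nearly equal, and all antibiotic libraries lay below them. The difference was -1.04 (95% interval -1.54 to -0.54), with an adjusted p of 0.0218 by limma and 0.0306 by edgeR. The call was lost without any 1 of the antibiotic libraries or of non-treatment replicates 1 and 2, at adjusted p between 0.0533 and 0.0779, while the difference stayed between -1.10 and -0.95. It was also lost without the filter on low values, at 0.0922.

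**Figure D4:**
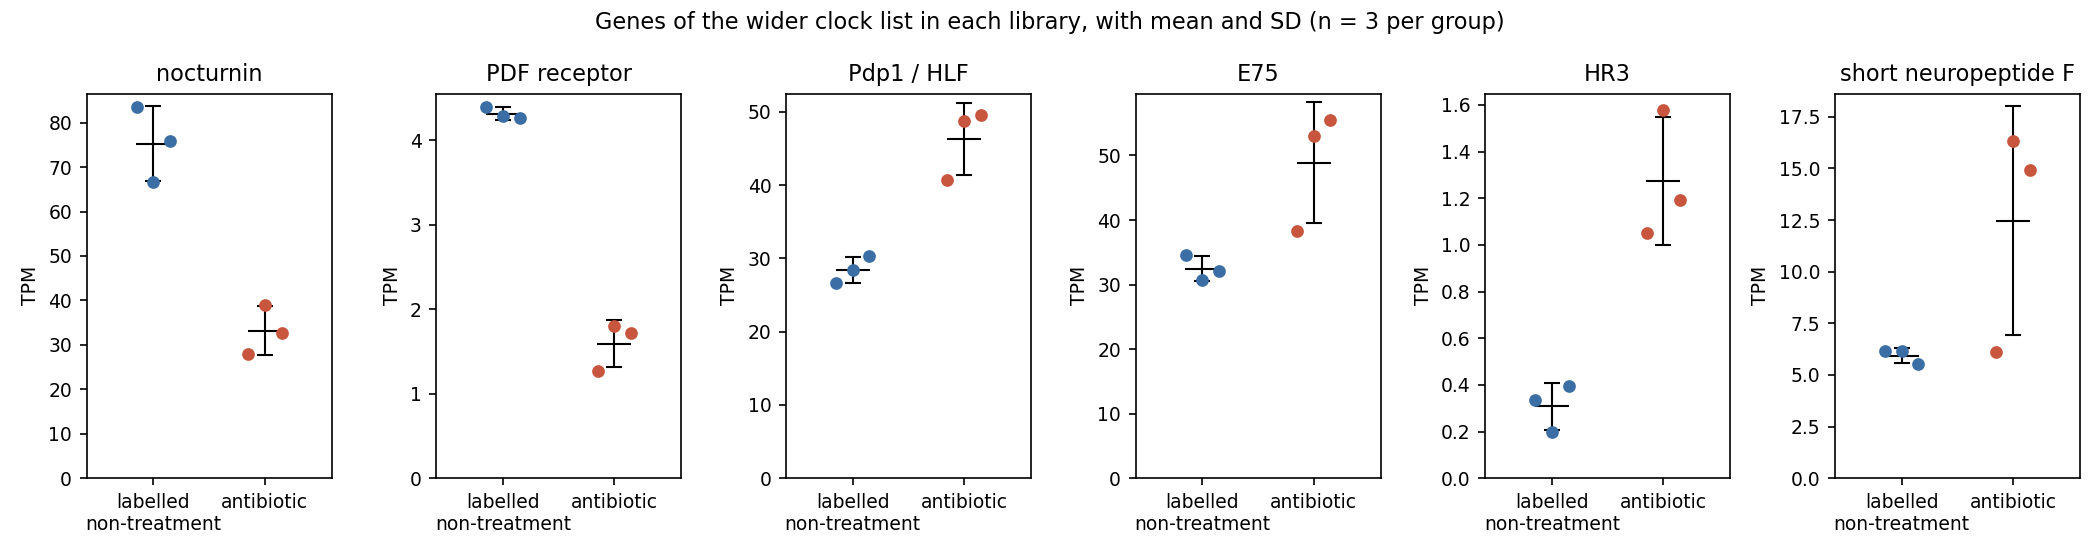
TPM of 6 genes of the wider clock list on linear axes from 0 in the 3 libraries labelled non-treatment (blue) and the 3 antibiotic libraries (red); points are libraries, the long bar is the mean and the error bar the SD. Nocturnin and the PDF receptor are lower in every antibiotic library, Pdp1, E75 and HR3 are higher in every antibiotic library, and short neuropeptide F overlaps through antibiotic replicate 1 at 6.12 TPM.

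An N-acetyltransferase of dopamine and other amines, TRINITY_DN48702_c0_g1, was read at 83.7, 54.0 and 15.4 TPM in the libraries labelled non-treatment and was listed at 0 in all antibiotic libraries. Against a limit of 3 counts over the antibiotic libraries that have counts, the share of counts in the lowest of the libraries labelled non-treatment was at least 319.5-fold higher (adjusted p = 0.0015 by limma on TPM). The mean that picked this Gene ID came wholly from those libraries, and the antibiotic libraries would have picked another of the 6 that carry the name. Protamine was listed at 0 in the same libraries and had the same order among the others, at 516, 408 and 81.8 TPM, and its part in this difference was not tested. The runner-up, TRINITY_DN59093_c6_g1, had 5.91, 44.9 and 41.5 TPM against 2.60, 3.18 and 5.53 TPM, and its adjusted p was 0.0791.

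Among the neuropeptides, short neuropeptide F, which carries signals of clock neurons in flies, was read at 6.15, 6.15 and 5.51 TPM against 6.12, 16.3 and 14.9 TPM. Antibiotic replicate 1 stood with the other group and the remaining antibiotic libraries far above it. The difference of 0.85 had an adjusted p of 0.185 by limma, and without antibiotic replicate 1 it was 1.26 with an adjusted p of 0.0235. Diuretic hormone 31 had 1.61, 6.27 and 3.99 TPM against 1.601, 8.20 and 5.94 TPM, with full overlap. Its difference of 0.27 had an adjusted p of 0.805 by limma, while on counts of 5 libraries edgeR gave a log2 fold change of 1.91 (adjusted p = 0.0983) and DESeq2 1.92 (adjusted p = 0.00616). The slowpoke-binding protein, a partner of the potassium channel slowpoke, had 8.05, 10.2 and 7.05 TPM against 10.7, 16.6 and 13.5 TPM, and its difference of 0.62 had an adjusted p of 0.156. The channel slowpoke itself differed by 0.38, with an adjusted p of 0.378.

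quiver, a sleep regulator of flies, had 3 Gene IDs, of which the first and second by level differed in outcome and the third had a mean of 0.252 TPM. The one of highest mean differed by -0.17 (adjusted p = 0.728 by limma). The second, TRINITY_DN64643_c0_g1, named quiver in Swissprot, rose from 2.56, 4.04 and 4.84 TPM to 11.5, 11.7 and 10.1 TPM, a difference of 1.36 (adjusted p = 0.0129 by limma). takeout, a clock-controlled protein of feeding in flies, had 236, 190 and 237 TPM against 103, 282 and 120 TPM, and narrow abdomen, the sodium leak channel of clock neurons, had 2.75, 3.20 and 1.05 TPM against 1.69, 1.58 and 1.91 TPM. Both overlapped, with adjusted p of 0.442 and 0.714 by limma. Ion transport peptide and photolyase stayed below 1 TPM in every library and were not tested.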

How the data were processed

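RNA of samples labelled as head was sequenced by the authors on an Illumina platform, 3 libraries per group, with groups and replicate numbers taken from the labels. The authors deposited TPM for 236706 Trinity genes, computed according to the methods from mapped fragments corrected for length and depth through featureCounts, with a sum of 1000000 per library. Estimated counts, also deposited by the authors and often fractional, were rounded to whole numbers for count tests. These used 5 libraries, since for antibiotic replicate 1 only TPM was analysed. The submitters' processing notes name FastQC, Salmon, DESeq2 and the mouse build mm10, with no version, while the genes carry Trinity names and the assembly is not given in the sources used. A gene name is that of its best protein match.

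The main test was limma (trend option on) applied to log2(TPM + 1) in all 6 libraries, with no covariate, on the 33919 genes with a mean of at least 1 TPM in a group. p-values were adjusted by Benjamini-Hochberg over all of these, and the threshold was 0.05. This scale understates the change of low genes. Single values and the 9 ratios were compared by exact permutation, two-sided, whose smallest possible p is 0.1. Alternatives were median-of-ratios scaling, no filter, a mean of at least 5 TPM, pseudocounts of 0.1 and 5, no trend, a replicate block, leaving out each library, edgeR, DESeq2, edgeR with DESeq2 size factors and, for the members, summed Gene IDs and picks made on 1 group. The text names all members, their runners-up, the tested genes of the wider list and the nearest 2 genes by pattern for each member. The members and lists were chosen with earlier results of these data known. Casein kinase I of the delta and epsilon kind and 4 of the 9 ratios were added after values were seen. Intervals are 95% intervals of the fit.

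Fits were run in R 4.3.3 (limma 3.58.1; edgeR 4.0.16; DESeq2 1.42.0) after each had been tested on simulated counts. Tables and permutation tests were made in Python 3.11.15, using SciPy 1.17.1, pandas 2.3.3 and NumPy 2.4.6.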

Additional observations from a re-analysis of the deposited data

How the results depend on the processing

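The count of clock genes past the threshold was 0 in all 19 alternatives, and no member was called in any. Picks made on 1 group gave the same Gene ID as the main pick for every member found, so these alternatives could not differ from the main result. The wider list, with 4 calls, had 2 without the filter on low values and 7 with edgeR, with DESeq2 and with edgeR under DESeq2 size factors, and between 2 and 4 when a library was left out (2 without antibiotic replicate 3). The count over all genes, 3440, was 2138 without the filter and between 1765 and 3867 when a library was left out, with 1765, 1941 and 2031 without antibiotic replicates 1, 2 and 3 and 2029 without non-treatment replicate 2. The cause was not tested, other than that fewer libraries or more genes enter these fits. The replicate numbers did not pair the samples: same-numbered deviations correlated at 0.13, -0.09 and 0.10, and not every library correlated best with its own number. With the number as a block in limma, 0 clock genes, 3 of the wider list and 2615 of all genes passed, and the PDF receptor had an adjusted p of 0.0597.

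Directions turned only in genes that limma on all 6 libraries did not call; of these, diuretic hormone 31 was called by DESeq2. Leaving out 1 library moved vrille between -0.18 and 0.27 (turned at -0.18, -0.00456 and -0.093), slimb between -0.22 and 0.13 (0.13 and 0.0102), twins between -0.20 and 0.21 (0.21 and 0.17), microtubule star between -0.37 and 0.0375, diuretic hormone 31 between -0.13 and 0.81 (-0.10 and -0.13), quiver between -0.33 and 0.0731 and the ratio of the NR-named Clock to cycle between -0.77 and 0.41 (0.41 and 0.0802). twins was 0.00609 with median-of-ratios scaling. With edgeR, DESeq2 and edgeR under DESeq2 size factors, shaggy was 0.0709, 0.0993 and 0.0673, slimb 0.23, 0.26 and 0.23, twins 0.29, 0.32 and 0.29, microtubule star 0.28, 0.30 and 0.27, and quiver 0.0875, 0.114 and 0.0816. The NR-named Clock was 0.0192 with DESeq2. Without the filter nocturnin and the PDF receptor missed the threshold, at adjusted p of 0.0658 and 0.0922 by limma. Median-of-ratios scaling moved the median of all genes from -0.09 to -0.05 on the log2 scale. Genes with a few counts, timeless among them, cannot show a moderate difference at this depth, and TPM carries no depth.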

Other observations

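Some genes near the clock were looked up after values were seen. TIMELESS-interacting protein, a partner of timeless homolog in replication, was read at 27.8, 29.3 and 36.1 TPM in the libraries labelled non-treatment and at 29.8, 31.6 and 34.2 TPM in the antibiotic libraries, with an adjusted p of 0.918 by limma. Its level was far above that of the Gene ID taken for timeless in every library. tango, a bHLH-PAS relative of cycle, had 7.91, 7.67 and 11.8 TPM against 11.8, 14 and 12.8 TPM, and its adjusted p was 0.247. A photo-lyase, a relative of cryptochrome that repairs DNA in light, had 10.1, 9.72 and 6.88 TPM against 5.83, 5.39 and 5.12 TPM. All antibiotic libraries lay below the others, with a difference of -0.60 and an adjusted p of 0.136. A gene named circadian clock-controlled protein, TRINITY_DN59250_c3_g1, had 106, 157 and 96.3 TPM against 170, 166 and 166 TPM and an adjusted p of 0.225, and a second one of that name, TRINITY_DN50569_c5_g1, differed by 0.06. Casein kinase I alpha had 69.9, 49.1 and 25.2 TPM against 10.7, 38.3 and 19.2 TPM, with an adjusted p of 0.233.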
